A study of Mus musculus with 24 samples.

Results

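Toll-like receptors are the germline-encoded receptors with which cells sense microbial molecules. The data described here are the levels of 10 mouse genes for them, Tlr1, Tlr2, Tlr3, Tlr4, Tlr6, Tlr7, Tlr9, Tlr11, Tlr12 and Tlr13, in hematopoietic stem and progenitor cells of wild-type (WT) mice and of mice that overexpress the RNA-binding protein TTP. The genes were chosen by symbol, as 10 of the 12 symbols that consist of Tlr and a number among 55376 genes in the count files. The remaining symbols of that form are outside the set. Counts and shares of surface and endosomal receptors below therefore cover the 10 genes only. The rule uses no expression value, but the set was chosen with earlier results of these data known. Bulk mRNA-seq was available for 24 libraries in 6 groups. HSCs, the marrow stem cells sorted as CD150+ cells, gave 4 Y-WT, 4 Y-TTPΔARE, 5 M-WT and 3 M-TTPΔARE libraries, where Y stands for young and M for middle-aged mice. MPP3 cells, multipotent progenitors biased to granulocytes and monocytes, gave 4 Y-WT and 4 Y-TTPΔARE libraries, and the study's own MPP3 analysis used 3 of the latter 4 without naming them. TTPΔARE mice, titled TTPdeltaARE in the sample labels, are homozygous for the removal of an AU-rich element from the 3′ UTR of Zfp36, the gene of TTP, and their controls are WT littermates. The allele is present in every cell of the mouse, all animals were male and untreated, and no other allele or agent is named. The labels do not say whether a library came from 1 mouse, so the p-values measure the spread between libraries.

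Toll-like receptors fall into those of the cell surface and those of endosomes. Tlr2 pairs with Tlr1 or Tlr6 to bind bacterial lipopeptides, and Tlr4 binds lipopolysaccharide together with Ly96 (MD-2). In endosomes, Tlr3 binds double-stranded RNA, Tlr7 single-stranded RNA, Tlr9 DNA with unmethylated CpG, Tlr13 bacterial ribosomal RNA, and Tlr11 and Tlr12 the profilin of protozoan parasites. The chaperone Unc93b1 carries the endosomal receptors out of the endoplasmic reticulum. Tlr3 signals through the adaptor Ticam1 (TRIF), the others through Myd88, and Tlr4 through both. Stem and progenitor cells of the marrow are known to carry several of these receptors, and type 1 conventional dendritic cells are known for high Tlr3, Tlr11 and Tlr12. TTP itself binds AU-rich elements in the 3′ UTRs of mRNAs and promotes their decay.

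On GRCm38, with the GENCODE M21 annotation, Tlr1 (chr5:64924679-64933563) and Tlr6 (chr5:64952031-64960097) lie next to each other on the minus strand. Tlr3 is at chr8:45395665-45411080 on the minus strand, Tlr11 at chr14:50357914-50363663 on the plus strand, and Tlr13 at chrX:106143204-106160493 on the plus strand. Tlr2 (chr3:83836272-83841767), Tlr4 (chr4:66827584-66930284), Tlr7 (chrX:167304929-167330558), Tlr9 (chr9:106222598-106226883) and Tlr12 (chr4:128615443-128618619) complete the set. Only Tlr3 overlaps another annotated gene, Gm45542 on the opposite strand, and since the strand setting of the counting is not given, reads of that gene cannot be told apart from those of Tlr3. Of the 45 pairs of the 10 genes, 1 pair, Tlr1 and Tlr6, shared identical stretches of 100 bases. The shared stretches were 8.57% of those in Tlr1 and 7.09% of those in Tlr6, so the split of reads between these 2 genes is uncertain.

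Because TTP acts on AU-rich elements, the 3′ UTR of each gene was searched for the letters TATTTAT, the core of such an element. Tlr3 held 3 copies in a 3′ UTR of 1496 bases and Tlr4 held 1 in 1321 bases, and the other 8 genes held none. The motif was present in 27.6% of the 3′ UTRs of 21020 genes, in 33.8% of those of a length like that of Tlr3 and in 31.0% of those like Tlr4. The 4 sites are shown because they are the only copies in the 10 genes. The motif is in capitals, and the first 2 of Tlr3 overlap.
Tlr3, chr8:45396809-45396833, minus strand: agttttgtaTATTTATttatatgta
Tlr3, chr8:45396805-45396829, minus strand: ttgtatattTATTTATatgtataga
Tlr3, chr8:45396505-45396529, minus strand: tcttgaactTATTTATctctgcctc
Tlr4, chr4:66842014-66842038, plus strand: agaatgctaTATTTATtaaatacaa

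Promoters from RefSeq (GRCm38.p6, 250 bases before to 50 after the start site) matched 8 of the 10 genes. They were searched on both strands for an EICE (GGAA, any 2 bases, GAAA), an ISRE core (GAAA, any 2 bases, GAAA), a PU.1 core (GAGGAAGT), an NF-kB motif (GGGA, any 2 bases, TTCC) and an AP-1 motif (TGANTCA). Matches of the first 2 can overlap, since the EICE ends in the GAAA with which the ISRE core begins. The motifs were present in 2.72%, 3.44%, 3.2%, 1.47% and 7.81% of 32851 promoters, in this order. The promoters of Tlr3, Tlr11 and Tlr13 are shown because these 3 genes carried the largest differences below, with the matched letters in capitals.
Tlr3, chr8:45410331-45410630, minus strand: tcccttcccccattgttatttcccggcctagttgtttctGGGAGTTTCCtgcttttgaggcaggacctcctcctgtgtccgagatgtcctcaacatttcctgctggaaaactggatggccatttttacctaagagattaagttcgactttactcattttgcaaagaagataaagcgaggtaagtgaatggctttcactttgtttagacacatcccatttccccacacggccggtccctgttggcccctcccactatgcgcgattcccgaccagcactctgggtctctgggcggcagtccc
Tlr11, chr14:50357664-50357963, plus strand: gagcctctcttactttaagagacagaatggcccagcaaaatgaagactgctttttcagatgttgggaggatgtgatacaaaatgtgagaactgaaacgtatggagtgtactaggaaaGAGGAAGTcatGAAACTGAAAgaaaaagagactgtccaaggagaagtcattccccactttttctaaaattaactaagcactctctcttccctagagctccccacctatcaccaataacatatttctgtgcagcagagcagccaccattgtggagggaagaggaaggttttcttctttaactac
Tlr13, chrX:106143025-106143324, plus strand: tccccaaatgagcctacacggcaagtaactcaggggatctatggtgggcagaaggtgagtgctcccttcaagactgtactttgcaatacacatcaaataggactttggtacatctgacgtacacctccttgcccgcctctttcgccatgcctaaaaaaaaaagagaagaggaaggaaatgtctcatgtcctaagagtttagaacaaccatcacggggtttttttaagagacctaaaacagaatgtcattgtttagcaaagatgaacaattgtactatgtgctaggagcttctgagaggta
Tlr3 held an NF-kB match, Tlr11 a PU.1 core and, a few bases further on, an ISRE core match, and Tlr13 none of these motifs. Among the other 5 genes, Tlr1 held a PU.1 core in 1 of its 2 promoters, Tlr6 2 overlapping ISRE cores in 1 of its 2 promoters, and Tlr9 a PU.1 core and an AP-1 match, while Tlr2 and Tlr12 held none. A match is a description of letters and not a measured binding site.

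The deposited read counts were expressed as CPM, the count of a gene relative to the total of its library, after TMM scaling. The total count per library lay between 24261371 and 39934554. Zfp36 lay between 72.7 and 118 CPM in the 11 TTPΔARE libraries and between 21.6 and 72.6 CPM in the 13 WT libraries, and was higher in every TTPΔARE library than in every WT library of the same cell type and age. Genes for olfactory and vomeronasal receptors, 1736 in all, summed to between 17.8 and 1048 CPM per library, with the highest sums in replicates 2 and 3 of Y-WT HSC. HSC markers were lower in MPP3 than in HSCs for 8 of 11 genes in Y-WT mice, and markers of MPP3 and myeloid progenitors were higher for 8 of 11.

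The 10 receptor genes differed widely in level. Compared per kilobase of exon (CPM per kb), Tlr2 and Tlr4 stood at the top in HSCs. In M-WT HSCs Tlr2 reached 10.5 ± 1.05 CPM per kb (SD, n = 5) and Tlr4 7.31 ± 0.260, followed by Tlr6 at 1.99 ± 0.47 and Tlr3 at 1.11 ± 0.22. The other 6 genes were below 0.8 CPM per kb there, and Tlr9 was lowest with 0.00961 ± 0.0144. In Y-TTPΔARE MPP3 cells the order was a different one, with Tlr11 at 10.8 ± 2.97 and Tlr3 at 10.2 ± 1.90 CPM per kb (SD, n = 4) above Tlr2 at 6.99 ± 1.92. Measured as a share of the summed CPM of all 10 genes, the 6 endosomal receptors made up 8.79% to 22.2% in HSC libraries, 24.8% to 31.5% in Y-WT MPP3 and 62.4% to 76.6% in Y-TTPΔARE MPP3.

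**Figure D1:**
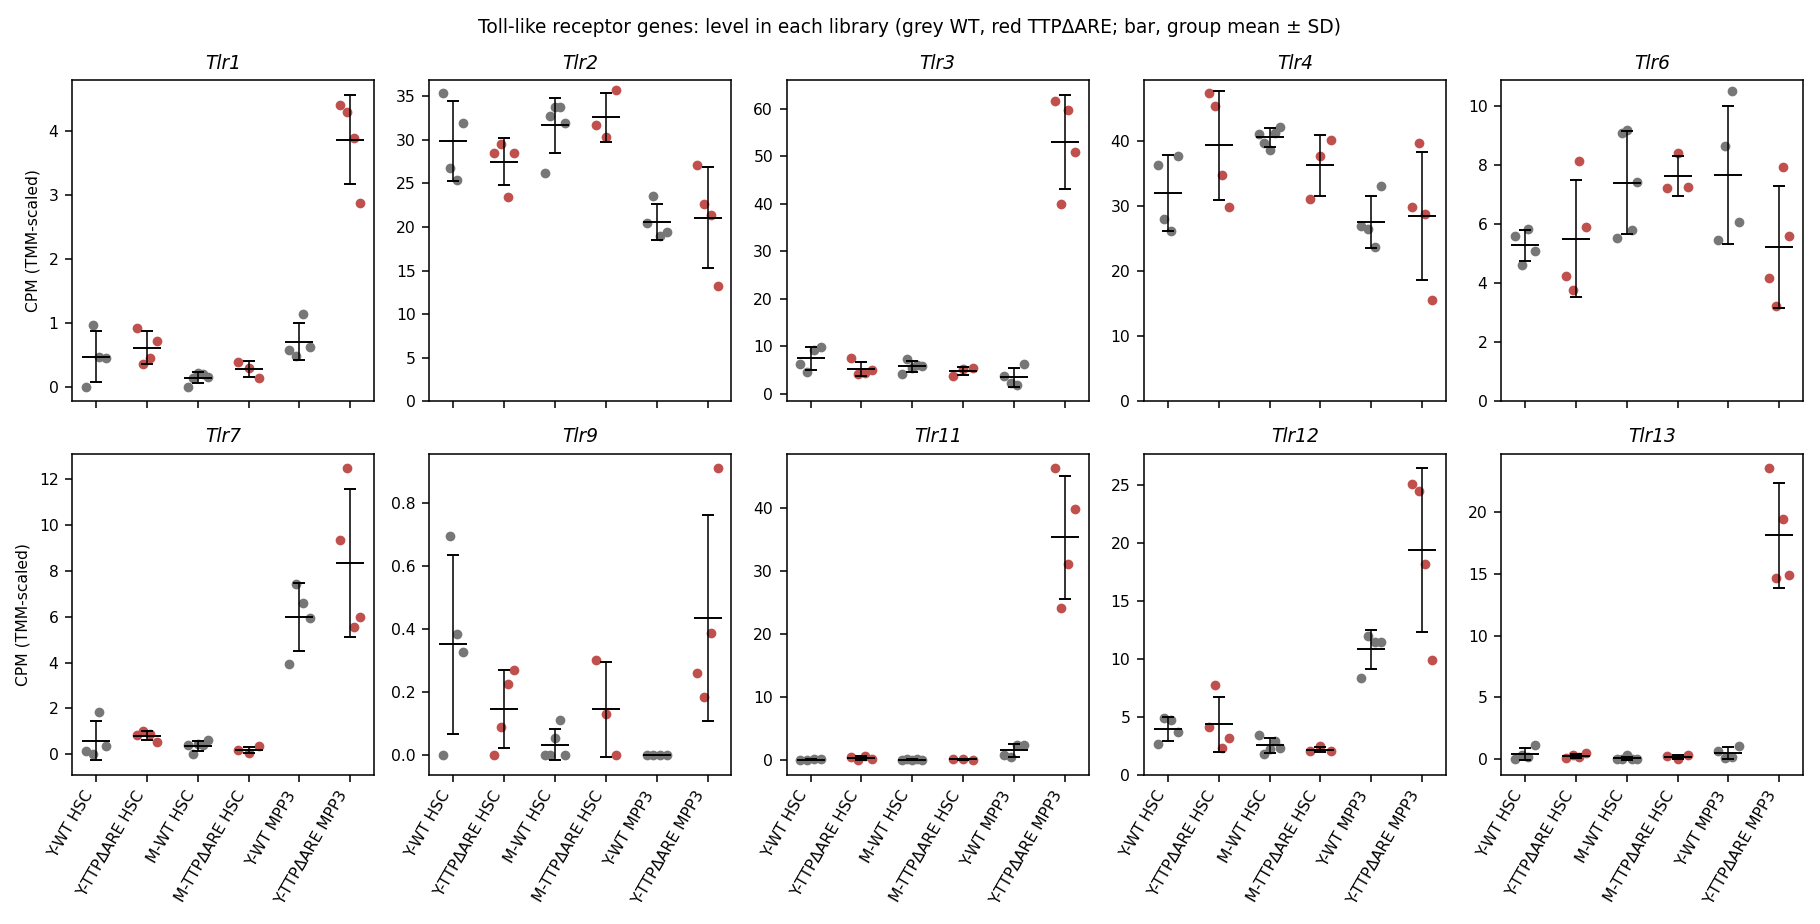
Level of each of the 10 Toll-like receptor genes, in CPM after TMM scaling on a linear axis per gene, in each of the 24 libraries of the 6 groups. Points are libraries, grey for WT and red for TTPΔARE, and bars give the group mean ± SD; for Tlr1, Tlr3, Tlr11 and Tlr13 all 4 Y-TTPΔARE MPP3 libraries lie above the other 20.

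The order of the groups was read from their mean CPM. Y-TTPΔARE MPP3 was the highest group for 7 of the 10 genes, namely Tlr1, Tlr3, Tlr7, Tlr9, Tlr11, Tlr12 and Tlr13. For Tlr1, Tlr3, Tlr11 and Tlr13 its range did not overlap that of the next group. The shares of all genes with this group highest, or with such a gap, were not computed, so these counts describe the receptors only. For Tlr7 and Tlr12 the ranges of the 2 MPP3 groups overlapped, while the gap from them to the HSC groups held no overlap. For Tlr2, Tlr4, Tlr6 and Tlr9 every pair of neighbours in the order overlapped, and neighbouring HSC groups overlapped for all 10 genes. In bulk samples such as these, a change in the number of cells that carry a transcript and a change in the level per cell cannot be told apart.

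The main comparison asked how TTP overexpression affected these genes in MPP3 cells of young mice. The endosomal receptors Tlr13, Tlr11 and Tlr3 rose strongly, and no receptor was called lower. The endosomal Tlr7 and Tlr12 and the 4 surface receptors were not called. Of the surface receptors, Tlr1 rose without overlap but at too low a level for a call, and Tlr2 and Tlr4 were close to their WT level. Calls rest on edgeR's quasi-likelihood test (adjusted p below 0.05), with a fold change above 1.2 and an average log2 CPM above 1.5 also required. By this rule 3 of the 9 genes with enough counts for the fit were called higher and 0 lower. Of all 19023 genes tested, 1.71% were called, 1.58% higher and 0.137% lower. The median log2 fold change was 0.87 over the 9 and 0.04 over all genes tested.

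Tlr3, the receptor for double-stranded RNA, had 3.81, 2.22, 1.78 and 6.26 CPM in the 4 Y-WT libraries (replicates 1 to 4, as below) and 61.6, 40.0, 59.8 and 50.8 CPM in the 4 Y-TTPΔARE libraries. The lowest TTPΔARE library was thus well above the highest WT library. Its log2 fold change was 3.96 ± 0.37 (SE) with an adjusted p of 0.000478 by edgeR's quasi-likelihood test. Tlr11, a receptor for profilin, went from 0.890, 0.426, 2.44 and 2.48 CPM in Y-WT to 46.3, 24.1, 31.2 and 39.8 CPM in Y-TTPΔARE. The groups did not overlap, and the log2 fold change was 4.51 ± 0.50 (adjusted p = 0.00115, edgeR). Tlr13, the sensor of bacterial ribosomal RNA, had 0.636, 0.122, 0.149 and 1.07 CPM in Y-WT and 23.6, 14.6, 19.5 and 14.9 CPM in Y-TTPΔARE. No Y-WT library came near the lowest Y-TTPΔARE library, and the log2 fold change of 5.22 ± 0.56 (adjusted p = 0.00101, edgeR) was the largest among the 9. All 3 genes stayed called when any 1 of the 8 libraries was left out and when the replicates 3 of both genotypes, the libraries of their groups with the most olfactory receptor counts, were left out together.

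Tlr1, a partner of Tlr2, passed the test of edgeR but not the limit on level. It had 0.572, 0.487, 1.13 and 0.620 CPM in Y-WT and 4.4, 4.3, 3.89 and 2.87 CPM in Y-TTPΔARE, without overlap. The log2 fold change was 2.47 ± 0.37 (adjusted p = 0.00688, edgeR) at an average log2 CPM of 1.16. Tlr6, with which it shares part of its sequence, had a log2 fold change of -0.50 ± 0.34 (adjusted p = 0.585).

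Tlr12, the other profilin receptor, had 8.33, 12.0, 11.5 and 11.4 CPM in Y-WT and 25.0, 24.4, 18.1 and 9.86 CPM in Y-TTPΔARE. In Y-TTPΔARE, replicates 1 to 3 lay above all Y-WT libraries and replicate 4 lay among them. The log2 fold change was 0.87 ± 0.27 and was not called (adjusted p = 0.184, edgeR). Without Y-TTPΔARE replicate 4 it was 1.08 ± 0.15 (adjusted p = 0.00815), and DESeq2 on all 8 libraries gave 0.86 (adjusted p = 0.0465). That replicate also had the lowest CPM of the 24 libraries for Tlr2 (13.2) and Tlr4 (15.6), and the highest mitochondrial CPM (14048). The part of RNA quality in these values was not tested.

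Tlr7 had 3.94 to 7.43 CPM in Y-WT and 5.53 to 12.5 CPM in Y-TTPΔARE, overlapping ranges with a log2 fold change of 0.50 ± 0.28 (adjusted p = 0.508, edgeR). Tlr2 had a log2 fold change of 0.07 ± 0.20 (adjusted p = 0.919), and its 2 group means were 20.6 ± 2.09 and 21.1 ± 5.79 CPM (SD, n = 4 each). For Tlr4 the difference was 0.09 ± 0.24 on the log2 scale (adjusted p = 0.917, edgeR) between 27.6 ± 3.97 and 28.5 ± 9.90 CPM. These 2 receptors, the most abundant of the set in HSCs, thus differed by less than the spread between libraries.

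Tlr9, the DNA sensor, was under the filter on low counts. It had 0 counts in all 4 Y-WT libraries and 8, 6, 12 and 26 counts in the Y-TTPΔARE libraries. With 0 counts in Y-WT no fold change can be given, and replicate 4 held 26 of the 52 counts in Y-TTPΔARE. The two-sided exact permutation test of mean CPM gave p = 0.0286, the smallest value that 4 against 4 libraries can give. A level of 0.435 ± 0.327 CPM (SD, n = 4) is nonetheless the lowest of the 10 genes in that group.

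**Figure D2:**
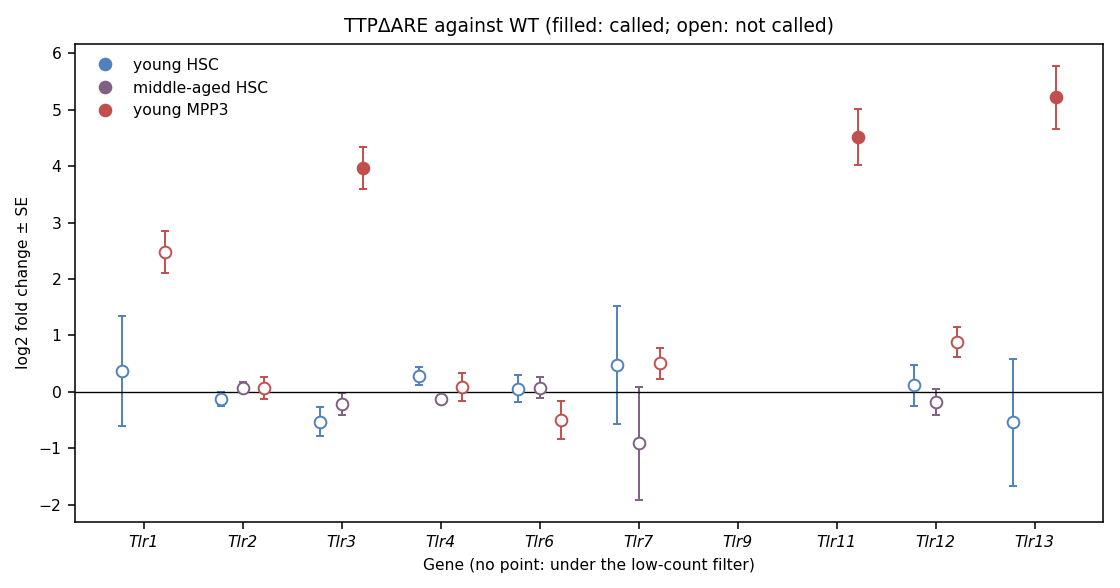
Log2 fold change ± SE of TTPΔARE against WT for each Toll-like receptor gene, by cell type and age. Filled points were called and open points were not; the 3 filled points are Tlr3, Tlr11 and Tlr13 in MPP3 cells, at 3.96, 4.51 and 5.22.

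Markers of other cell types moved with these receptors in the MPP3 libraries. Of 10 markers of type 1 conventional dendritic cells, 8 were called higher in Y-TTPΔARE MPP3 and none lower, and their summed level was 579 to 730 CPM in Y-WT and 1290 to 1994 CPM in Y-TTPΔARE. Xcr1, the chemokine receptor that defines these cells, had 1.40, 0.365, 0.952 and 3.01 CPM in Y-WT and 79.2, 42.4, 59.3 and 78.7 CPM in Y-TTPΔARE. Clec9a, their receptor for dead cells, rose from between 0.684 and 1.52 CPM to between 18.6 and 38.3 CPM, and Batf3, a transcription factor they require, from between 0.0609 and 0.789 CPM to between 9.29 and 21.6 CPM. Among the Y-TTPΔARE libraries, Xcr1, Tlr3, Tlr11 and Tlr13 were all highest in replicate 1 and lowest in replicate 2. Replicate 4 lay above replicate 3 for Xcr1 and Tlr11 and below it for Tlr3 and Tlr13. Tlr12 was highest in replicate 1 and lowest in replicate 4. These orders over 4 libraries were not tested.

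Of 12 markers shared by conventional dendritic cells or of their type 2, 7 were called higher, among them the antigen presentation genes Cd74, H2-Aa and H2-Ab1 (summed level 1180 to 1603 CPM against 5972 to 9352 CPM). Of 12 macrophage and monocyte markers, 5 were called higher, among them Ccr2 and Cd68 (570 to 781 CPM against 996 to 1446 CPM). No marker of plasmacytoid dendritic cells was called (331 to 387 CPM against 298 to 464 CPM), and Siglech, which defines them, stayed at 0.0564 to 1.78 CPM in Y-WT and 0.736 to 1.61 CPM in Y-TTPΔARE. Of 10 B cell markers, Cd22 alone was called higher (57.2 to 128 CPM against 67.5 to 184 CPM), and Pax5 was under 1 CPM in all 8 libraries.

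Elane was the only one of 11 neutrophil and granule markers called higher (362 to 1297 CPM against 1042 to 2292 CPM), and Ly6g was under 1 CPM in all 8. Of 10 T and NK cell markers, Klrd1 and Lck were called higher (213 to 363 CPM against 281 to 535 CPM). Tek and Tie1 were called lower among 8 endothelial markers (368 to 433 CPM against 324 to 388 CPM). No HSC marker was called (2281 to 3015 CPM against 1580 to 2552 CPM), and Fcgr3 and Irf8 were called higher among 11 markers of MPP3 and myeloid progenitors (3292 to 4023 CPM against 3089 to 3693 CPM). Irf8 is on this list and on that of type 1 dendritic cells. The part of dendritic or other mature cells in the receptor values was not tested.

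**Figure D3:**
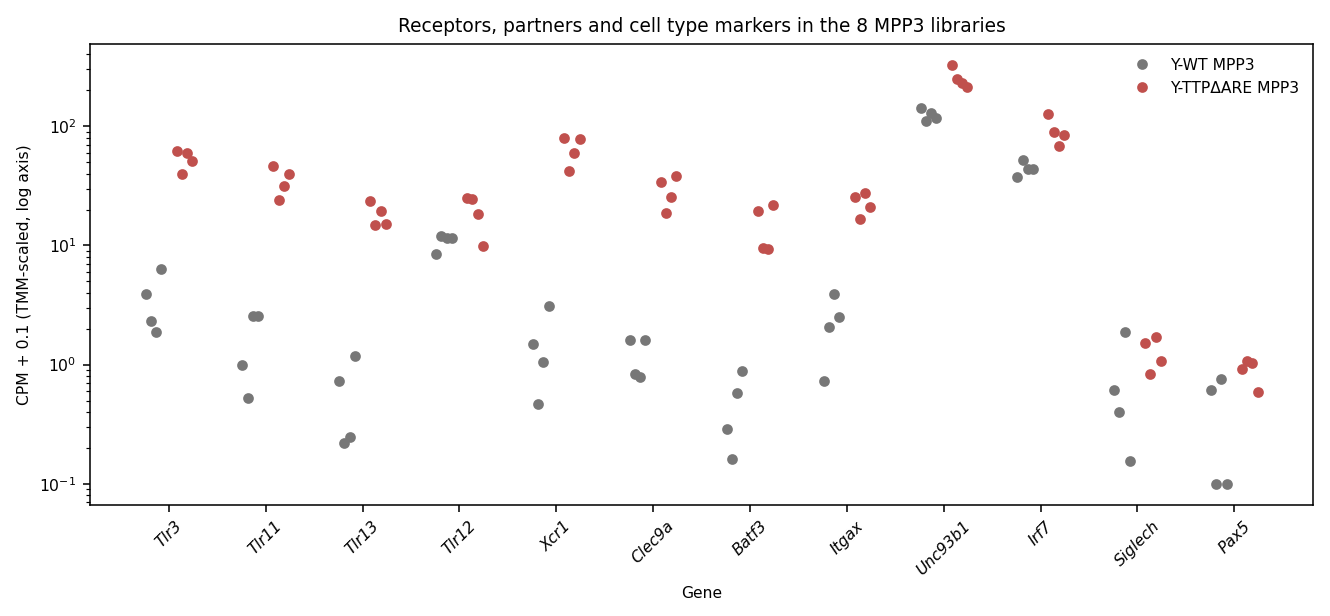
CPM + 0.1 (log axis) of receptors, of Unc93b1 and Irf7, and of cell type markers in the 8 MPP3 libraries, grey for Y-WT and red for Y-TTPΔARE. Tlr3, Tlr11 and Tlr13 separate the genotypes as Xcr1, Clec9a, Batf3 and Itgax do, whereas Siglech and Pax5, markers of plasmacytoid dendritic cells and B cells, overlap between them. Of the markers not drawn, Ccr2 (monocyte), Elane (granule), Cd22 (B cell) and Klrd1 (NK cell) also separate the genotypes.

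The rest of the pathway was described with a list of 50 genes in 5 roles, all of which had enough counts for the fit. In young MPP3 cells 5 of the 50 were called higher in TTPΔARE and none lower, and the median log2 fold change of the list was -0.01. The limit on level was passed by 48 of the 50, and of all 12856 genes above it 326 were called. Among 11 co-receptors and trafficking factors 3 were called. Unc93b1, the chaperone of the endosomal receptors, had 141, 110, 130 and 117 CPM in Y-WT and 327, 247, 231 and 212 CPM in Y-TTPΔARE. Every Y-TTPΔARE library was higher than every Y-WT library (log2 fold change 1.05 ± 0.16, adjusted p = 0.00688, edgeR). Ly86 (MD-1), the partner of the Toll-like receptor homolog Cd180, rose by 3.59 ± 0.40 on the log2 scale (adjusted p = 0.00119), from between 2.44 and 7.38 CPM to between 29.7 and 71.0 CPM. Cd36, a scavenger receptor that hands lipids to Tlr2 and Tlr6, rose by 3.44 ± 0.47 (adjusted p = 0.00399).

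Among 6 transcription factors, Irf5 and Irf7, which act downstream of Myd88 on cytokine and interferon genes, were called higher. Irf5 rose 2.17-fold (adjusted p = 0.00156, edgeR) and Irf7 2.13-fold (adjusted p = 0.00534), both without overlap between genotypes. None of 6 adaptors, 18 kinases and ubiquitin ligases or 9 inhibitors was called. Myd88 had 56.0 to 78.3 CPM in Y-WT and 62.5 to 97.4 CPM in Y-TTPΔARE, and Ticam1 6.82 to 10.1 and 8.81 to 15.8 CPM. The median log2 fold change was 0.34 for the adaptors, -0.15 for the kinases and ubiquitin ligases and -0.13 for the inhibitors.

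**Figure D4:**
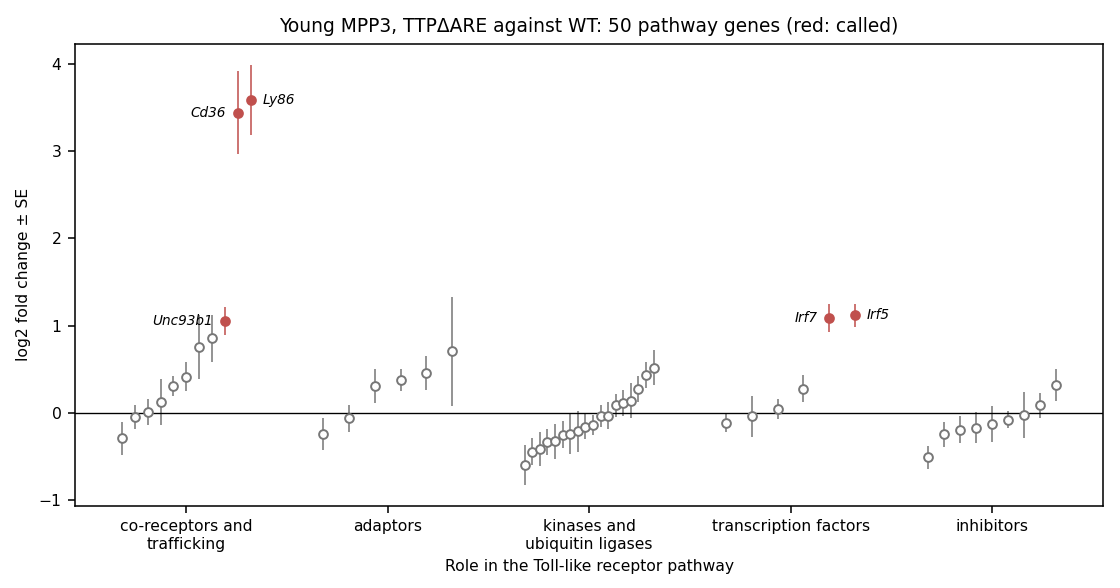
Log2 fold change ± SE of TTPΔARE against WT in young MPP3 cells for 50 genes of the Toll-like receptor pathway, grouped by role, with called genes in red. The 5 called genes are Unc93b1, Cd36 and Ly86 among the co-receptors and trafficking factors and Irf5 and Irf7 among the transcription factors.

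The same genotype comparison in HSCs called none of the receptors. In young HSCs 8 of the 10 genes had enough counts and 0 were called by edgeR, beside 0.0246% of the 24381 genes tested (0.0123% higher and 0.0123% lower). With edgeR and the same limits, the study itself reported more called genes in each genotype comparison, with the widest gap in young HSCs. The reason for this gap was not tested. No receptor had an unadjusted p under 0.05 here, and DESeq2 called 0. The count was also 0 without Y-WT HSC replicates 2 and 3. Log2 fold changes lay between -0.54 (Tlr13) and 0.47 (Tlr7), with a median of 0.08. Tlr3 had 6.38, 4.72, 9.24 and 9.89 CPM in Y-WT and 7.53, 4.25, 4.37 and 5.02 CPM in Y-TTPΔARE HSCs, overlapping ranges with a log2 fold change of -0.53 ± 0.26 (adjusted p = 0.707, edgeR). Tlr4 had a log2 fold change of 0.28 ± 0.16 (adjusted p = 0.716), and Tlr2 one of -0.13 ± 0.12 (adjusted p = 0.730). Tlr6 and Tlr12 differed by 0.05 ± 0.24 and 0.11 ± 0.36, and Tlr1 by 0.36 ± 0.97, all with adjusted p over 0.8. For Tlr11 (0 to 0.237 CPM in Y-WT and 0 to 0.621 CPM in Y-TTPΔARE) and Tlr9 (0 to 0.694 and 0 to 0.271 CPM) the exact permutation test gave p = 0.171 and 0.229. No difference was detected at these levels, and what size of difference could be detected was not tested.

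In middle-aged HSCs, 6 genes had enough counts and 0 were called by edgeR or DESeq2, beside 1.41% of 21136 genes tested (0.7% higher and 0.71% lower), and none had an unadjusted p under 0.05. Tlr4 had 38.6 to 42.3 CPM in M-WT and 31.1 to 40.1 CPM in M-TTPΔARE (log2 fold change -0.13 ± 0.08, adjusted p = 0.440, edgeR). Tlr2 differed by 0.07 ± 0.10 (adjusted p = 0.767) between 26.2 to 33.7 CPM and 30.3 to 35.7 CPM. The other 4 log2 fold changes were -0.22 ± 0.19 (Tlr3), 0.08 ± 0.19 (Tlr6), -0.18 ± 0.23 (Tlr12) and -0.92 ± 1.00 (Tlr7). Tlr1, Tlr9, Tlr11 and Tlr13 were under the filter, with means of at most 0.276 CPM in either group, and their exact permutation p lay between 0.143 and 0.75. Of the 50 pathway genes none was called in young HSCs and 1 in middle-aged HSCs, Irf5, which was higher in TTPΔARE by 0.32 ± 0.06 on the log2 scale (adjusted p = 0.0362, edgeR).

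The difference between the effect of TTPΔARE in MPP3 cells and in HSCs was tested as an interaction over the 16 young libraries. It was called for 2 of the 10 genes, both with a larger increase in MPP3 cells, beside 0.429% of 26337 genes tested (0.383% above and 0.0456% below 0). For Tlr3 the difference of the log2 fold changes was 4.39 ± 0.47 (adjusted p = 0.000265, edgeR), and the call held without any 1 library. For Tlr13 it was 5.68 ± 1.14 (adjusted p = 0.0345). That call was lost when any 1 of 13 of the 16 libraries was left out, that is all except Y-WT HSC replicates 1 and 3 and Y-WT MPP3 replicate 4, with adjusted p between 0.0508 and 0.169. It was also lost without the replicates 3 of both MPP3 groups (5.46 ± 1.26, adjusted p = 0.0900). Tlr11, with 0 to 0.621 CPM in the young HSC libraries, had an interaction of 2.81 ± 1.28 that was not called (adjusted p = 0.444), so the increase of Tlr11 in MPP3 cells is not shown to differ from that in HSCs. The differences of Tlr1 (1.95 ± 1.02), Tlr12 (0.61 ± 0.44) and Tlr2 (0.09 ± 0.23) were not called, and neither were those of Tlr4 (-0.31 ± 0.30), Tlr6 (-0.66 ± 0.45) and Tlr7 (-0.15 ± 0.92). Tlr9 was not called either, and its fitted value is no measure because Y-WT MPP3 had 0 counts. Markers moved in the same test, with 8 of 10 of type 1 dendritic cells, 6 of 12 shared or of type 2 and 2 of 12 of macrophages and monocytes called above 0, and their part in it was not tested. Of the pathway genes, Cd36, Irf5 and Irf7 were called in this test, with differences of 4.37 ± 0.82, 0.82 ± 0.18 and 1.04 ± 0.19. The interaction of age and genotype in HSCs, which asks whether the effect differed between young and middle-aged mice, was called for 0 of 9 genes by edgeR and by DESeq2, beside 0.0213% of 28189 genes tested (0.00355% above and 0.0177% below 0). Tlr4 alone had an unadjusted p under 0.05 there, with a difference of -0.46 ± 0.20 on the log2 scale (adjusted p = 0.308). The other 8 differences lay between -1.42 (Tlr7) and 3.25 (Tlr9), with adjusted p of at least 0.416.

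MPP3 cells were next compared with HSCs within each genotype of young mice. Sorting and library preparation dates are not given, so any such difference between the sets and the cell type cannot be told apart. In Y-WT mice 3 of 9 genes were called, Tlr7 and Tlr12 higher and Tlr2 lower in MPP3 cells, beside 22.2% of 22816 genes tested (14.5% higher and 7.69% lower). The limit on level was passed by 6 of the 9, and of all 13433 genes above it 5069 were called. The count of receptors called is thus near the share over all genes. The count of 3 was the same without Y-WT HSC replicates 2 and 3. Other markers differed in the same comparison, and macrophage and monocyte markers were called higher for 6 of 12 genes and lower for 2, neutrophil and granule markers higher for 3 of 11 and endothelial markers lower for 6 of 8. Their part in the receptor values was not tested. Tlr12 had 2.64, 4.86, 4.72 and 3.67 CPM in Y-WT HSCs and 8.33, 12.0, 11.5 and 11.4 CPM in Y-WT MPP3 cells, without overlap. Its log2 fold change was 1.48 ± 0.20 (adjusted p = 0.000774, edgeR), and the call held without any 1 library. Tlr7, a receptor for single-stranded RNA, had 0.165, 0, 1.84 and 0.355 CPM in HSCs and 3.94, 7.43, 6.57 and 5.95 CPM in MPP3 cells. The lowest MPP3 library lay above the highest HSC library, and the log2 fold change was 3.40 ± 0.94 (adjusted p = 0.0262). Without Y-WT HSC replicate 4 or without any 1 of the 4 Y-WT MPP3 libraries the adjusted p was between 0.0507 and 0.0860.

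Tlr2 was lower in Y-WT MPP3 cells, at 20.4, 23.6, 18.9 and 19.4 CPM against 35.3, 26.7, 25.4 and 31.9 CPM in Y-WT HSCs. All 4 MPP3 libraries were below all 4 HSC libraries, and Tlr2 fell by 0.51 on the log2 scale (SE 0.14, adjusted p = 0.0230, edgeR). The adjusted p was 0.0571 without Y-WT HSC replicate 1 and 0.0608 without Y-WT MPP3 replicate 2. Tlr11 passed the test but not the limit on level (log2 fold change 3.87 ± 1.24, adjusted p = 0.0477), with 0, 0, 0.192 and 0.237 CPM in HSCs and 0.426 to 2.48 CPM in MPP3 cells. Tlr3 had a log2 fold change of -1.08 ± 0.39 (adjusted p = 0.0749, edgeR). It was called lower by DESeq2 (adjusted p = 0.0318), with the replicate number as a block (0.0393) and without Y-WT MPP3 replicate 4 (0.0259). Tlr6, Tlr4, Tlr1 and Tlr13 had log2 fold changes of 0.57 ± 0.23, -0.20 ± 0.15, 0.65 ± 1.04 and 0.30 ± 1.25 and were not called.

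In Y-TTPΔARE mice all 5 endosomal receptors with enough counts were called higher in MPP3 cells than in HSCs, and no surface receptor was called, beside 16.3% of 21478 genes tested (9.07% higher and 7.22% lower). Log2 fold changes by edgeR were 6.71 ± 0.56 for Tlr11 (adjusted p = 3.4e-05), 6.01 ± 0.39 for Tlr13 (1.0e-05), 3.34 ± 0.23 for Tlr3 (1.1e-05), 3.33 ± 0.33 for Tlr7 (9.6e-05) and 2.16 ± 0.40 for Tlr12 (0.00374). Each of the 5 kept its call without any 1 of the 8 libraries and with the replicate number as a block, which the printed values do not use. HSC libraries of this genotype held 0 to 0.621 CPM of Tlr11, 0.115 to 0.481 CPM of Tlr13 and 4.25 to 7.53 CPM of Tlr3. Tlr1 was also higher (2.66 ± 0.38, adjusted p = 0.000807) but under the limit on level. Tlr2, Tlr4 and Tlr6 had log2 fold changes of -0.38 ± 0.20, -0.46 ± 0.26 and -0.05 ± 0.35 and were not called. Tlr9 had 20 counts in the 4 HSC libraries and 52 in the 4 MPP3 libraries (exact permutation p = 0.143). This comparison shares its MPP3 libraries with the genotype comparison above. Markers of type 1 dendritic cells were called higher for 9 of 10 genes here and for 2 of 10 in Y-WT mice, and those shared or of type 2 for 11 of 12 here and 3 of 12 in Y-WT mice. Macrophage and monocyte markers were called higher for 8 of 12 genes here, neutrophil and granule markers for 5 of 11, and T and NK cell markers lower for 4 of 10 and higher for 2. Endothelial markers were called lower for 5 of 8 genes. Their part in the receptor values was not tested.

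**Figure D5:**
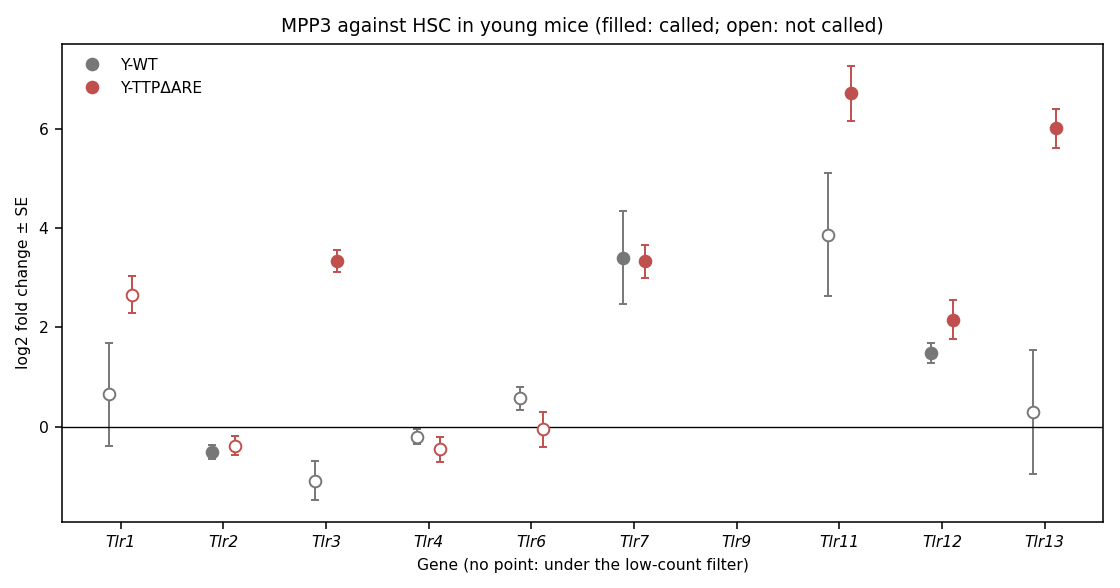
Log2 fold change ± SE of MPP3 against HSC in young WT (grey) and TTPΔARE (red) mice for each Toll-like receptor gene. Filled points were called; Tlr7 and Tlr12 are filled and above 0 in both genotypes, whereas Tlr3, Tlr11 and Tlr13 are filled only in TTPΔARE, and the difference between genotypes was called for Tlr3 and Tlr13, the latter call being lost without any 1 of 13 of the 16 libraries.

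Pathway genes were also compared between the cell types. In Y-WT mice 12 of the 50 were called higher and 5 lower in MPP3 cells. In Y-TTPΔARE mice 9 were called higher and 5 lower. A call needs an average log2 CPM above 1.5, which 48 of the 50 passed in each genotype. Of all genes above that limit, 5069 of 13433 were called in Y-WT and 3500 of 13358 in Y-TTPΔARE. The pathway counts are thus near the share over all genes. Ticam2, the bridging adaptor of Tlr4 to Ticam1, was higher in MPP3 cells in both genotypes (1.55 ± 0.16 in Y-WT and 1.09 ± 0.17 in Y-TTPΔARE on the log2 scale). The kinase-like inhibitor Irak3 was lower in both, with log2 fold changes of -0.93 ± 0.10 and -1.47 ± 0.13. Of the 18 kinases and ubiquitin ligases 7 were called higher and 1 lower in Y-WT, among the former Traf6 with 0.48 ± 0.07. In Y-TTPΔARE 0 were called higher and 2 lower, but the interaction of cell type and genotype was called for 0 of the 18. Cd36 was lower in MPP3 cells of Y-WT mice (-3.75 ± 0.77, adjusted p = 0.00685, edgeR) and higher in those of Y-TTPΔARE mice (0.63 ± 0.15, adjusted p = 0.0129).

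Middle-aged and young WT HSCs were compared for the effect of age. None of 6 genes with enough counts was called by edgeR, beside 12.1% of 22280 genes tested (8.38% higher and 3.69% lower), and 3 had an unadjusted p under 0.05. Tlr4 had 36.4, 28.0, 26.2 and 37.7 CPM in Y-WT and 41.2, 39.7, 38.6, 41.3 and 42.3 CPM in M-WT. All M-WT libraries lay above all Y-WT libraries, with a log2 fold change of 0.30 ± 0.10 (adjusted p = 0.0638, edgeR). It was called higher by DESeq2 (adjusted p = 0.0446), without the filter on low counts (0.0420), and without Y-WT HSC replicate 1 (0.0186) or 4 (0.0235). Without Y-WT HSC replicates 2 and 3, its 2 lowest young libraries, the log2 fold change was 0.11 ± 0.09 (adjusted p = 0.508). Tlr12 had 2.64 to 4.86 CPM in Y-WT and 1.81 to 3.41 CPM in M-WT (log2 fold change -0.69 ± 0.25, adjusted p = 0.0727). It was called lower by DESeq2 (adjusted p = 0.0483) and without Y-WT HSC replicate 1 (0.0157).

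Tlr6 had a log2 fold change of 0.45 ± 0.18 (adjusted p = 0.0915) with age, Tlr3 one of -0.43 ± 0.23 (0.202) and Tlr2 one of 0.05 ± 0.11 (0.785). For Tlr7 it was -0.72 ± 1.18 (0.699), and 0.47 without Y-WT HSC replicates 2 and 3. Tlr1, Tlr9, Tlr11 and Tlr13 were under the filter, with exact permutation p between 0.0952 and 0.937. Among the pathway genes 8 of 50 were called higher and 2 lower in middle-aged HSCs, with 47 of the 50 above the limit on level. Of all 13648 genes above that limit 2691 were called, so the pathway count is near the share over all genes. Myd88 was higher by 0.31 ± 0.08 on the log2 scale, with Irak4, the kinase it recruits, higher by 0.41 ± 0.07 and the inhibitor Irak3 by 0.48 ± 0.07. Ly96, the lipopolysaccharide-binding partner of Tlr4, was lower (-0.78 ± 0.13, adjusted p = 0.00323, edgeR), and so was Cd36 (-3.02 ± 0.57, adjusted p = 0.00546). In middle-aged HSCs 4 of 12 macrophage and monocyte markers, 4 of 10 T and NK cell markers and 3 of 8 endothelial markers were called lower, and 8 of 11 HSC markers were called higher. Their part in the receptor values was not tested. Young and middle-aged libraries were not stated to have been prepared together, so age and preparation cannot be told apart.

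For each gene with an average log2 CPM over 1.5 across the 24 libraries, the 3 genes with the most similar pattern were taken from 13590 genes by Pearson's r of log2 CPM. These values describe likeness across 24 libraries of 6 groups and carry no test. The nearest to Tlr3 were Ciita (r = 0.957), the master regulator of MHC class II genes, Cd74 (0.930) and Ckb (0.911). Those of Tlr11 were Ifi205 (0.964), Mycl (0.949) and Mpeg1 (0.946), and those of Tlr13 March1 (0.921), Rab7b (0.911) and Xcr1 (0.909). Much of this likeness came from the 4 Y-TTPΔARE MPP3 libraries, since over the other 20 libraries r was 0.456 to 0.705 for the genes of Tlr3, 0.613 to 0.677 for those of Tlr13 and 0.779 to 0.856 for those of Tlr11.

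Tlr12 was most like Icosl (0.942), Padi2 (0.940) and H2-Ob (0.936), with r of 0.887 to 0.920 over the other 20 libraries. The nearest genes to Tlr2 were Mvp (0.924), Ahr (0.910) and Slc2a1 (0.906), those to Tlr4 Zfp809 (0.921), Prkd2 (0.899) and Shoc2 (0.892), and those to Tlr6 Vsig10l (0.703), Faddos (0.692) and Pctp (0.685). No gene was thus among the 3 nearest of more than 1 receptor.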

How the data were processed

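Bulk mRNA-seq of sorted HSC and MPP3 cells was analysed for 24 libraries in 6 groups taken from the sample titles. The deposited values are raw counts per gene symbol. According to the methods, the authors trimmed reads with Trim Galore! 0.4.3 and Cutadapt 1.12, aligned them to mm10 with STAR (GENCODE M22 index) and assigned reads to genes by featureCounts. The sources used here do not give its strand and multimapping settings. The labels and the methods name different library kits.

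Counts were analysed with edgeR 4.0.16 in R 4.3.3 (filterByExpr with minimum count 10 and total 15, TMM factors, quasi-likelihood F test, Benjamini-Hochberg over all genes tested). The limits for a call were 0.05 (adjusted p), 1.2 (fold change, except for interactions) and 1.5 (average log2 CPM). Each comparison was fitted on its own groups. SE is the log2 fold change over the square root of F. Genes under the filter were tested by exact permutation (SciPy 1.17.1). Likeness used a prior count of 2. The receptors, lists and comparisons were chosen with earlier results of these data known. The receptors are described in each comparison, except Tlr9 in MPP3 against HSC of Y-WT and Tlr11 in the interaction of age and genotype, which were under the filter. Pathway genes were named from the called ones among the 8 of a comparison with the smallest adjusted p, and Cd36 in Y-TTPΔARE (MPP3 against HSC), Myd88 and Ticam1 in MPP3 cells were named outside this rule, after their values were seen. Alternatives were DESeq2 1.42.0, RLE factors, no filter, adjusted p alone, a replicate block, library totals and each library left out. Leaving out sets of libraries and likeness over 20 libraries were added after seeing the data. Motif searches and the choice of promoters shown were made after seeing the data. The fits were also run on simulated data with a set spread between libraries. Changes were placed only in genes above a minimum level, so the simulation does not cover receptors at low levels.

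The replicate numbers were checked for pairing. For MPP3 against HSC in Y-TTPΔARE, same-numbered libraries deviated together in all 4 pairs (correlations 0.160 to 0.364). The numbers may thus mark pairs there, by the data and not by the labels, although only 6 of 8 libraries correlated best with their own number. The pairing was not used in the printed values of that comparison, nor in the interaction of cell type and genotype. With the replicate number as a block, the 5 receptor calls of the former and the 2 of the latter stayed in place. In every other comparison not all same-numbered pairs had a positive correlation, which does not exclude a pairing there.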

Additional observations from a re-analysis of the deposited data

Results flagged for a closer look

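In the test for a library far from the rest of its group, 49 combinations of gene and group were examined and 3 libraries stood apart, where chance alone marks about 1 in 20 groups. Tlr2 was at 26.2 CPM in M-WT HSC replicate 1, below the other 4 libraries. Tlr12 was at 8.33 CPM in Y-WT MPP3 replicate 1, below the other 3. Tlr13 was at 0.303 CPM in M-WT HSC replicate 3, where the other 4 libraries had 0 counts.

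The effect of TTPΔARE differed between MPP3 cells and HSCs of young mice by the interaction test of edgeR for Tlr3, with a difference of the log2 fold changes of 4.39, and for Tlr13, with 5.68. The Tlr13 call was lost without any 1 of 13 of the 16 libraries (adjusted p of 0.0508 to 0.169) and without the replicates 3 of both MPP3 groups (0.0900).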

How the results depend on the processing

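Alternatives were a DESeq2 test, RLE scaling factors, no filter on low counts, calls by adjusted p alone, the replicate number as a block, CPM on library totals, and each library left out. Removing Y-WT HSC replicates 2 and 3, or the replicates 3 of both MPP3 groups, was chosen after seeing the data. The count of receptors called stayed at 0 in young and in middle-aged HSCs for genotype and for the interaction of age and genotype under all of these. For genotype in MPP3 cells it was 3 or 4, and for MPP3 against HSC in Y-TTPΔARE 5 or 6. With a library left out it was 1 to 3 for MPP3 against HSC in Y-WT, 0 to 2 for age and 1 to 2 for the interaction of cell type and genotype. For age it was 2 with DESeq2 and 1 without the filter, and for the interaction of cell type and genotype it was 1 without the replicates 3 of both MPP3 groups. Of 1086 alternative log2 fold changes of single genes, 1005 kept their direction and call, 14 gained a call, 21 lost one and 46 changed sign, none of the last for a called gene. With the replicate block, Tlr6 (-0.0089) and Tlr13 (0.058) changed sign in young HSCs. The block called 4 receptors, with Tlr3 (-1.17) added, for MPP3 against HSC in Y-WT, and changed no other receptor call. It took the genes called in all from 298 to 97 for genotype in middle-aged HSCs, from 2691 to 1614 for age and from 6 to 0 for the interaction of age and genotype. Outside MPP3 against HSC in Y-TTPΔARE the correlations between same-numbered libraries were -0.140 to 0.281, which does not exclude a pairing. In no comparison, that of MPP3 against HSC in Y-TTPΔARE included, did every library correlate best with its own number. Without the replicates 3 of both MPP3 groups, Tlr2 (-0.00092) and Tlr4 (-0.011) changed sign in MPP3 cells, and so did the interaction of cell type and genotype for Tlr7 (0.21), which was 0.021 with DESeq2 and 0.0013 with RLE factors. Without Y-WT HSC replicates 2 and 3 the values were -0.17 for Tlr13 in MPP3 against HSC in Y-WT, -0.11 for Tlr2 and 0.47 for Tlr7 with age, and, in the interaction of age and genotype, -0.48 for Tlr1 and 0.00021 for Tlr6, the latter also 0.029 with DESeq2 and with RLE factors. With a library left out, ranges that crossed 0 in young HSCs were -0.17 to 0.024 for Tlr2, -0.20 to 0.25 for Tlr6, -0.26 to 0.32 for Tlr12 and -0.91 to 0.81 for Tlr13. In middle-aged HSCs the range was -0.018 to 0.16 for Tlr6, and in MPP3 cells -0.065 to 0.22 for Tlr2 and -0.098 to 0.27 for Tlr4. For MPP3 against HSC it was -0.31 to 1.55 for Tlr13 in Y-WT and -0.38 to 0.20 for Tlr6 in Y-TTPΔARE. With age it was -0.0093 to 0.15 for Tlr2 and -1.13 to 1.04 for Tlr7. In the interaction of cell type and genotype it was -1.74 to 0.31 for Tlr7. In that of age and genotype it was -0.064 to 0.91 for Tlr1, -0.0085 to 0.22 for Tlr2, -0.20 to 0.24 for Tlr6 and -0.55 to 0.055 for Tlr12. The cause of these changes was not tested. DESeq2 called more genes in all than edgeR: 304 against 6 in young HSCs, 823 against 298 in middle-aged HSCs, 766 against 326 in MPP3 cells, 335 against 113 for the interaction of cell type and genotype and 160 against 6 for that of age and genotype. Without the filter the counts were 73 in young and 842 in middle-aged HSCs and 16 for the interaction of age and genotype, and by adjusted p alone 4453 for age. Without Y-WT HSC replicates 2 and 3 they were 167 in young HSCs, 3093 for MPP3 against HSC in Y-WT, 1570 for age and 66 for the interaction of age and genotype, and without the replicates 3 of the MPP3 groups 184 for genotype in MPP3 cells. With a library left out they ranged from 0 to 12 in young HSCs, 68 to 299 in middle-aged HSCs, 185 to 347 in MPP3 cells, 2313 to 4013 for MPP3 against HSC in Y-TTPΔARE, 66 to 132 for the interaction of cell type and genotype and 0 to 56 for that of age and genotype. Genes below 1 CPM, such as Tlr9, Tlr11 and Tlr13 in HSCs, rest on few reads.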
